A study of Mus musculus with 11 samples.

Results

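Bmp4, Bmp2, Bmp5, Wnt5a, Wnt4, Rspo1 and Rspo3 encode secreted BMP, WNT and R-spondin proteins that signal to the epithelium of the thymus. The 7 genes were looked up by symbol in a table of 12430 genes measured in mouse thymic fibroblasts, and 6 of the 7 were found. Bmp5 had no row in the table and is not analysed further. The question was how fibroblast transcripts for these ligands differed 18 h and 4 d after dexamethasone, a synthetic glucocorticoid that makes the thymus shrink, from those of untreated mice.

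BMP proteins bind paired serine/threonine kinase receptors, which phosphorylate Smad proteins that then enter the nucleus. WNT proteins bind Frizzled receptors and either stabilise beta-catenin or act without it, Wnt5a being known mainly for the route without it. R-spondins bind Lgr receptors and keep the ubiquitin ligases Znrf3 and Rnf43 from removing Frizzled receptors, so they amplify WNT signals. In the mouse thymus, mesenchymal and endothelial cells are known sources of BMP4, and BMP and WNT signals act on thymic epithelial cells through their master regulator Foxn1.

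Bmp4 is the ligand whose level changed at both times in the results that follow, and the bases just before its start are therefore shown. The gene is protein-coding and lies on the minus strand at chr14:46383520-46390669 (GRCm38, the sequence of mm10). RefSeq (GRCm38.p6) gives the following 250 bases before the start, chr14:46390670-46390919, read on the minus strand, with an E-box in capitals.
Bmp4 promoter: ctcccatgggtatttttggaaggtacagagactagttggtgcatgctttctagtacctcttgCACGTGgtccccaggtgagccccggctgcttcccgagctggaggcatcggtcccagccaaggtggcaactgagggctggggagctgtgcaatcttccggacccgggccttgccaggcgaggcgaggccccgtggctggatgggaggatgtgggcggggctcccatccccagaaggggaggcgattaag
This window has a GC content of 63.2%. The E-box CACGTG, a sequence that basic helix-loop-helix proteins bind, starts 188 bases before the gene start and was found in 6.02% of 32851 promoters of this length. The glucocorticoid receptor half-site AGAACA (16.1% of promoters) and the TCF/LEF site CTTTGA (13.8%) were not in this window. The full receptor palindrome, this half-site followed after any 3 bases by its reverse complement, was found in 0.00913% of promoters and not in this one. Each motif was searched on both strands, and a match or its lack is a description of these letters only. Of the 7 genes, 4 had a promoter in the RefSeq table (Bmp4, Bmp5, Wnt4 and Rspo1), and the E-box in Bmp4 was the only match to these motifs among them.

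The groups were 3 libraries from mice taken 18 h after an intraperitoneal dose of dexamethasone (200 ug per 10 g body weight), 4 libraries from mice taken 4 d after it, and 4 libraries from untreated, age-matched mice. All mice were young wild-type males, and the labels record no vehicle injection for the untreated mice. The sort took cells labelled CD45-, CD31-, CD34+ and PDGFRalpha+, and the labels also list EpCAM as positive. The MARS-seq libraries sample the 3' end of each polyadenylated RNA. For the later group the sample titles say 3 d and all other labels say 4 d, which is the time used here. No label says that replicates came from separate mice, so p-values measure only how far these samples spread, which may be technical variation.

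Library totals ran from 916281 to 3357113 counts, and 18 h replicate 2 and 4 d replicate 4 were the shallowest, at 924731 and 916281. Levels are in CPM, the count as a rate per library total after TMM scaling, and a count of 0 allows a level of up to 0.997 to 3.72 CPM, depending on the library (3 counts; counting error only). Pdgfra was found in every library at 49.8 to 153 CPM and Cd34 at 466 CPM or more, while Epcam stayed between 0.377 and 10.3 CPM and Foxn1 was not in the table. The summed level of 10 fibroblast markers was 6554 to 15765 CPM at 18 h, 19950 to 34079 CPM at 4 d and 17782 to 26568 CPM in untreated libraries. Of these 10 genes 1 passed as higher at 18 h, Pdgfrb (1.86 ± 0.38 on the log2 scale, adjusted p = 0.00621 by edgeR), and 1 as lower, Col1a2 (-1.14 ± 0.32, adjusted p = 0.0326). The other 8 did not pass but were all below 0 at 18 h, between -2.16 (Lum) and -0.48 (Cd34). The list median was -0.84 against -0.03 over all genes tested. The summed level of 11 endothelial markers was 1024, 231 and 662 CPM at 18 h, 142 to 268 CPM at 4 d and 218 to 348 CPM in untreated libraries, and Pecam1, which encodes the sorted-out CD31, stood at 121, 14.5 and 42.7 CPM at 18 h against at most 3.77 CPM in untreated libraries. By edgeR 5 of the 8 tested endothelial markers passed as higher at 18 h and 0 as lower, where 7.85% and 4.69% of all genes did. Kdr of that list averaged 30.1 against 85.7 CPM in untreated libraries and did not pass (adjusted p = 0.0605). Pericyte and smooth muscle markers (9 genes) summed to 401 to 1082 CPM at 18 h, 117 to 182 CPM at 4 d and 133 to 300 CPM in untreated libraries. At 18 h 4 of the 9 passed as higher and 1, Abcc9, as lower (-2.60, adjusted p = 0.0312). For the fibroblast and pericyte sums at 18 h, an exact two-sided permutation test against untreated libraries gave p = 0.0571, below which 3 against 4 libraries cannot go, and p = 0.343 once adjusted over 24 such tests. The sum of 8 macrophage and leukocyte markers, 99.6 to 131 CPM at 18 h, 71.4 to 109 CPM at 4 d and 64.0 to 148 CPM in untreated libraries, overlapped, but 3 of the 7 tested passed as higher at 18 h. These were Ptprc, which encodes the sorted-out CD45, at a mean of 12.1 against 2.53 CPM (adjusted p = 0.0369), Cybb at 8.57 against 0.512 CPM (adjusted p = 0.00401) and Cd68 at 32.8 against 14.6 CPM (adjusted p = 0.00588), and none of the 3 overlapped the untreated libraries. Csf1r, at 29.9 against 52.8 CPM, did not pass (adjusted p = 0.337). Summed mesothelial markers (6 genes, all found) were 2078, 4070 and 3392 CPM at 18 h, 4231, 4240, 537 and 1397 CPM at 4 d, and 2817 to 4573 CPM in untreated libraries. The part of these marker differences in the ligand results was not tested. They are given again beside the results they move with.

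Differences between groups are log2 values with their standard error (SE) from edgeR's quasi-likelihood test on counts, fitted over 10067 genes, and a gene passed at an adjusted p below 0.05. All 6 ligand genes passed the filter on low counts. Annotated genes on the opposite strand overlap Bmp4, Wnt5a, Rspo1 and Rspo3 (GENCODE, GRCm38) and none of them is in the table, and whether counting used strand is not given, so their reads cannot be told apart. Gm20276, also not in the table, overlaps Rspo3 on the same strand, so that strand would not tell those reads apart. At 18 h, 12.5% of all genes tested passed (7.85% higher, 4.69% lower), and of the 6 ligands 0 were higher and 2, Bmp4 and Wnt5a, were lower. No ligand was higher at an unadjusted p below 0.05 either, nor by DESeq2. At 4 d, 3.31% of genes passed (2.48% higher, 0.824% lower), and 1 of the 6 ligands, Bmp4, was lower. With library totals in place of TMM, the share of passing genes that were higher was 38.3% against 62.6% at 18 h and 51.6% against 75.1% at 4 d. The 18 h and 4 d comparisons share the untreated libraries.

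**Figure D1:**
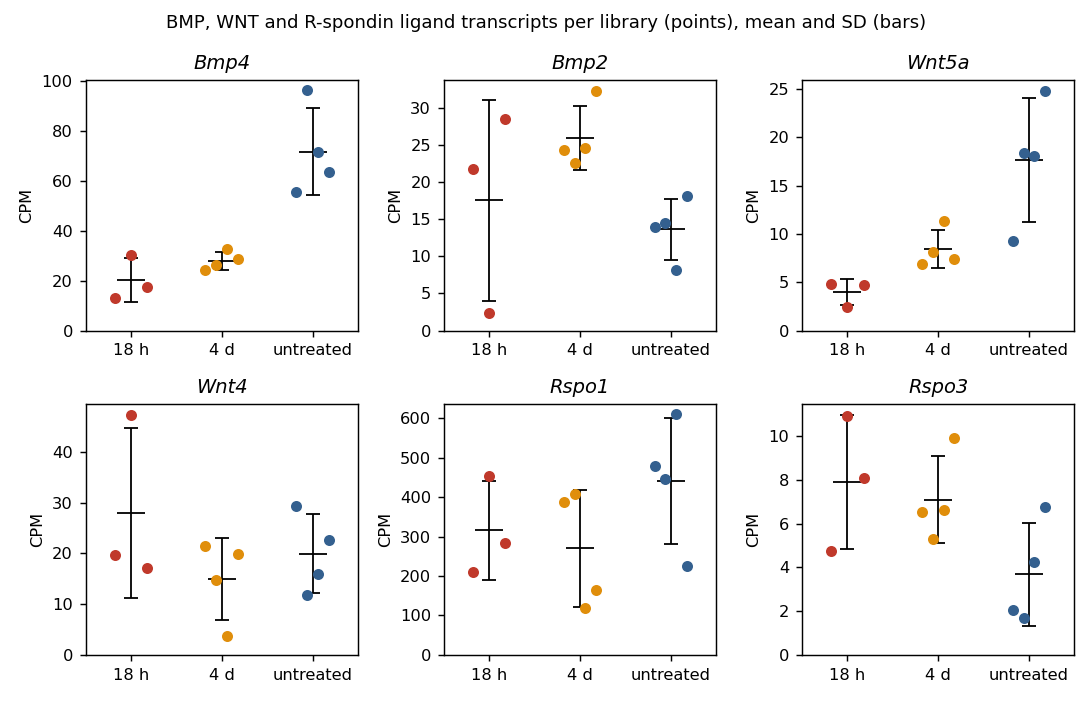
Level of each ligand transcript (CPM, linear axes from 0) in every library, with 1 point per library and bars for the mean and SD of the 18 h (n = 3), 4 d (n = 4) and untreated (n = 4) groups. All 7 Bmp4 points after dexamethasone lie at or below 32.6 CPM and all untreated points at or above 55.7 CPM, while Wnt4 and Rspo1 points overlap between groups.

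Bmp4, a growth factor for thymic epithelium, was lower at both times. Its level was 13.2, 30.3 and 17.6 CPM in the 18 h libraries, 24.3, 26.1, 32.6 and 28.6 CPM in the 4 d libraries, and 55.7, 96.4, 71.7 and 63.6 CPM in the untreated libraries. Every library taken after dexamethasone was below every untreated library, and the 18 h and 4 d libraries overlapped. The 18 h mean of 20.4 ± 8.85 CPM (SD, n = 3) stood against 71.9 ± 17.6 CPM (SD, n = 4) in untreated mice, a log2 difference of -1.88 ± 0.30 (SE; adjusted p = 0.0015) and a 3.68-fold lower level.

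At 4 d Bmp4 averaged 27.9 ± 3.57 CPM (SD, n = 4), a log2 difference from untreated libraries of -1.37 ± 0.26 (SE; adjusted p = 0.0132), or 2.58-fold lower. Between the times it differed by 0.52 ± 0.30, which did not pass (adjusted p = 0.341; 95% interval -0.14 to 1.17). The authors' deposited table, which gives untreated over treated, lists 1.89 at 18 h (adjusted p = 3.35e-07) and 1.37 at 4 d (adjusted p = 0.000115) for Bmp4. The counts behind these levels were 25 to 37 per library at 18 h, 23 to 98 at 4 d and 108 to 202 in untreated libraries.

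The Bmp4 difference held with each library left out in turn, between -2.21 and -1.64 at 18 h and between -1.47 and -1.20 at 4 d. Without the 2 shallowest libraries it was -2.21 at 18 h and -1.37 at 4 d. Without 18 h replicate 1, which had the highest endothelial and pericyte sums, it was -1.64 at 18 h (adjusted p = 0.0118). Beside it at 18 h, 5 of 8 tested endothelial and 4 of 9 tested pericyte markers passed as higher, as did the leukocyte genes Ptprc, Cybb and Cd68. The pericyte marker Abcc9 passed as lower, and the endothelial sum overlapped the untreated libraries. The fibroblast marker sum at 18 h, 6554 to 15765 CPM, was below the untreated range of 17782 to 26568 CPM. Its list median was -0.84, and of its 10 genes all but Pdgfrb were below 0. The part of all these markers in the Bmp4 difference was not tested. Over 11 libraries the log2 levels of Bmp4 and of the summed endothelial markers had a Pearson's r of -0.50 (permutation p = 0.118, adjusted p = 0.523 over 48 relations) and a Spearman's rho of -0.35 (permutation p = 0.299, adjusted p = 0.802). The deviations from the group means gave an r of -0.88. Without the 2 libraries farthest from the median sum, 18 h replicates 1 and 3 at 1024 and 662 CPM, r was 0.36. That leaves only replicate 2 at 18 h, so this r cannot weigh the relation at that time. In sorted bulk cells, fewer cells that express a gene and less RNA per cell cannot be told apart.

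Bmp2, a close relative of Bmp4 (protein-coding, plus strand, chr2:133552159-133562885), did not pass in any comparison. It had 21.7, 2.42 and 28.5 CPM at 18 h, 24.3, 22.6, 24.6 and 32.3 CPM at 4 d, and 13.9, 14.5, 8.16 and 18.1 CPM in untreated libraries. The low 18 h value rests on 2 counts in a shallow library, and the other 2 libraries of that group lay above every untreated one. The 4 d mean of 25.9 ± 4.32 CPM (SD, n = 4) stood against 13.7 ± 4.10 CPM (SD, n = 4), and the 4 d and untreated libraries did not overlap. The log2 difference was 0.90 ± 0.41 at 4 d (adjusted p = 0.262; 95% interval 0.02 to 1.78) and 0.48 ± 0.45 at 18 h (adjusted p = 0.527; -0.49 to 1.44). Without 18 h replicate 2 the 18 h difference was 0.88, still past no threshold.

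Within each library, Bmp4 took a smaller share of the summed Bmp4 and Bmp2 counts at 4 d than in untreated mice. Its share was 50%, 53.6%, 57.0% and 46.9% at 4 d, against 80.0%, 86.9%, 89.8% and 77.9% in untreated libraries. At 18 h it was 37.9% and 38.1% in replicates 1 and 3, and 92.6% in replicate 2, where 25 of 27 counts were Bmp4 (95% Wilson interval 76.6% to 97.9%). The Wilson intervals of the 4 d libraries reached no higher than 64.1%, and those of the untreated libraries no lower than 71.9%. These shares follow from the levels above and are not a separate test.

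Wnt5a, a WNT ligand of mesenchymal cells (protein-coding, plus strand, chr14:28504750-28527448), was lower at 18 h. It had 4.77, 2.42 and 4.75 CPM at 18 h, 6.89, 8.12, 11.3 and 7.45 CPM at 4 d, and 9.29, 18.4, 18.1 and 24.9 CPM in untreated libraries. All 18 h libraries were below all 4 d libraries and all untreated libraries, whereas the highest 4 d library exceeded the lowest untreated one. The 18 h mean of 3.98 ± 1.35 CPM (SD, n = 3) stood against 17.7 ± 6.39 CPM (SD, n = 4) in untreated mice, a log2 difference of -2.05 ± 0.41 (SE; adjusted p = 0.00578) and a 4.15-fold lower level. Only 9, 2 and 10 counts lie behind the 18 h values, and the 2.42 CPM of replicate 2 is below the limit that a count of 0 allows there, 3.63 CPM.

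At 4 d Wnt5a averaged 8.44 ± 1.97 CPM (SD, n = 4), and its log2 difference from untreated libraries of -1.05 ± 0.33 did not pass (adjusted p = 0.0974; 95% interval -1.75 to -0.34). Without untreated replicate 1, the lowest of its group, the 4 d difference was -1.25 and passed (adjusted p = 0.0289), so that 2 ligands were then lower at 4 d. Between 4 d and 18 h it differed by 1.0 ± 0.43, which did not pass after adjustment over all genes (adjusted p = 0.188; 0.09 to 1.92). The call at 18 h held without the 2 shallowest libraries (-1.90, adjusted p = 0.0201) and with each library left out in turn (-2.26 to -1.85). The fibroblast marker sum was below that of every untreated library at 18 h, and of its 10 genes all but Pdgfrb were below 0. Over 11 libraries the log2 levels of Wnt5a and of this sum had a Pearson's r of 0.77 (permutation p = 0.00439, adjusted p = 0.105 over 48 relations). Spearman's rho was 0.71 (permutation p = 0.0172, adjusted p = 0.414). The deviations from the group means gave an r of 0.78, and without the 2 libraries farthest from the median sum r was 0.49. The part of the fibroblast markers in the Wnt5a difference was not tested, nor was that of the leukocyte genes.

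**Figure D2:**
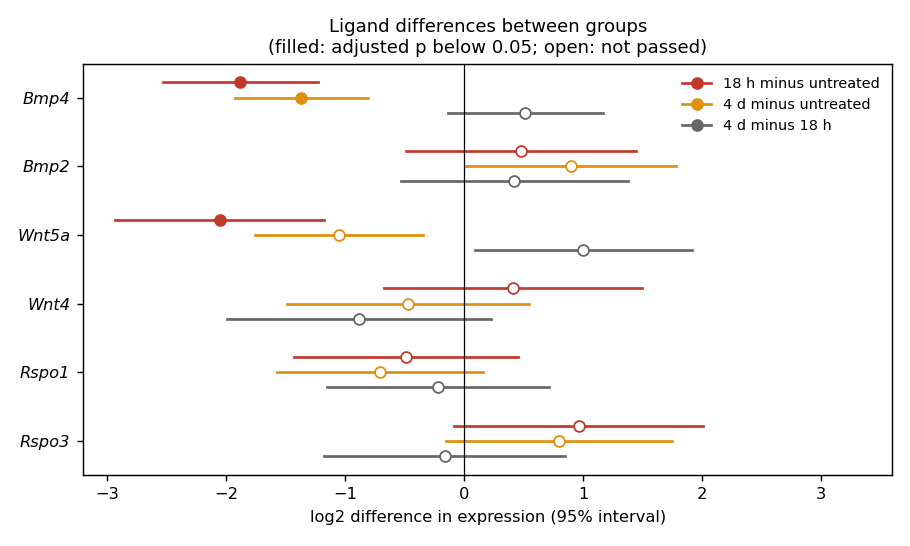
Log2 difference of each ligand between groups with its 95% interval, for 18 h minus untreated, 4 d minus untreated and 4 d minus 18 h. Filled points, Bmp4 at -1.88 and -1.37 and Wnt5a at -2.05, passed the adjusted p of 0.05; all other points are open, and the intervals of Wnt4, Rspo1 and Rspo3 include 0.

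Wnt4, a WNT ligand also known from thymic epithelium (protein-coding, plus strand, chr4:137277489-137299726), did not pass in any comparison. It had 19.6, 47.2 and 17.1 CPM at 18 h, 21.4, 14.8, 3.65 and 19.9 CPM at 4 d, and 29.4, 11.7, 16 and 22.6 CPM in untreated libraries. The groups overlapped throughout, with a single high library at 18 h and a single low one at 4 d. Its log2 difference from untreated libraries was 0.41 ± 0.51 at 18 h (adjusted p = 0.636; 95% interval -0.67 to 1.49) and -0.47 ± 0.47 at 4 d (adjusted p = 0.648; -1.48 to 0.55). Without 18 h replicate 2 the 18 h value was -0.12, so its sign rests on that library.

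Wnt5a and Wnt4 counts within a library gave Wnt5a a share of 19.6%, 4.88% and 21.7% at 18 h, 24.4%, 35.4%, 75.6% and 27.3% at 4 d, and 24.0%, 61.1%, 53.1% and 52.4% in untreated libraries. The 4 d and untreated libraries overlapped, and the highest share, in 4 d replicate 3, was in the library with the least Wnt4. The shares at 18 h were all below those of the untreated libraries.

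Rspo1 encodes an R-spondin (protein-coding, plus strand, chr4:124986430-125009099) and was counted deeply, at 133 to 1722 counts per library. It had 210, 453 and 283 CPM at 18 h, 387, 408, 119 and 165 CPM at 4 d, and 479, 446, 611 and 225 CPM in untreated libraries. The 4 d replicates 1 and 2 lay within the untreated range and replicates 3 and 4 below it, and all groups overlapped. The mean was 315 ± 125 CPM at 18 h (SD, n = 3), 270 ± 149 CPM at 4 d (SD, n = 4) and 440 ± 160 CPM in untreated mice (SD, n = 4). The log2 difference was -0.49 ± 0.44 at 18 h (adjusted p = 0.505; 95% interval -1.43 to 0.45) and -0.70 ± 0.40 at 4 d (adjusted p = 0.372; -1.57 to 0.16).

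The level of Rspo1 went with that of mesothelial markers, genes of the cell layer that covers the organ. The 4 libraries with the lowest mesothelial sums, 537, 1397, 2078 and 2817 CPM, were also the 4 with the least Rspo1, at 119, 165, 210 and 225 CPM. On the log2 scale over 11 libraries, Pearson's r was 0.91 (permutation p = 1e-05, the smallest that 100000 permutations can give; adjusted p = 0.00048 over 48 ligand and marker relations). Spearman's rho was 0.85 (permutation p = 0.00144, adjusted p = 0.0691). Without the 2 libraries farthest from the median sum r was 0.89, and the deviations from the group means gave 0.90. No group holds 6 libraries, so no value within a single group is given, and both measures share the library and its scaling. The mesothelial genes Msln and Upk3b stood at 108 and 68.8 CPM in 4 d replicate 3, and at 713 CPM or more and 247 CPM or more in every library other than 4 d replicates 3 and 4. Krt19 was also low in 4 d replicate 3, at 69.8 CPM. Wt1 of the same list went the other way, at 186 CPM there against 111 to 233 CPM in untreated libraries. Its lowest level, 54.5 CPM, was in 18 h replicate 2, where the mesothelial sum was 4070 CPM. For Wnt4 the same relation gave r of 0.68 (permutation p = 0.0448, adjusted p = 0.373) and rho of 0.13 (permutation p = 0.711, adjusted p = 0.842), and r was 0.06 without the 2 farthest libraries, so it rests on those libraries. For Bmp4 r was 0.22.

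**Figure D3:**
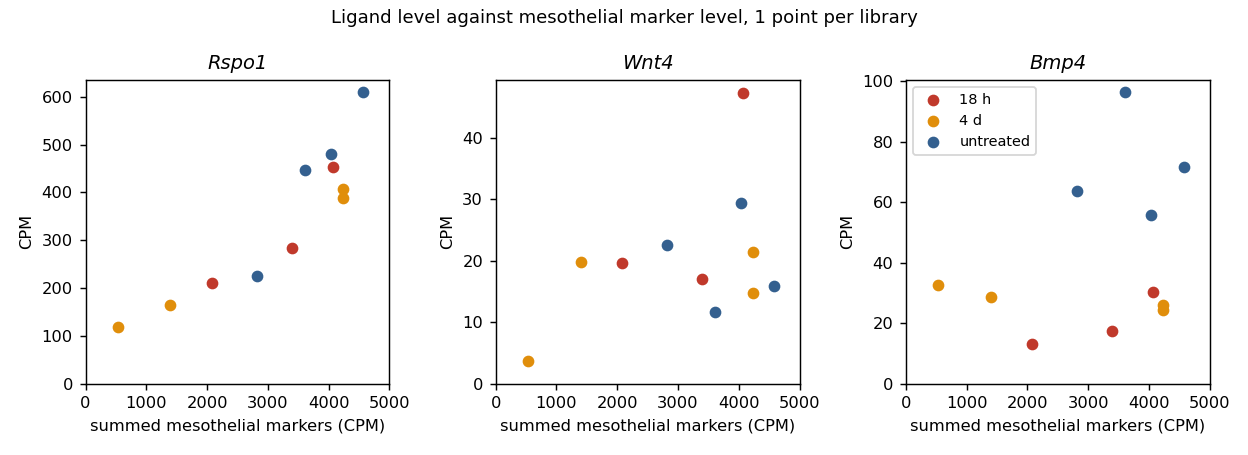
Level of Rspo1, Wnt4 and Bmp4 (CPM) against the summed level of 6 mesothelial markers (CPM) in each of the 11 libraries, coloured by group. Rspo1 points climb with the marker sum from 119 CPM at a sum of 537 CPM to 611 CPM at 4573 CPM. Bmp4 points lie at or below 32.6 CPM after dexamethasone, where 18 h and 4 d overlap, and at or above 55.7 CPM in untreated libraries.

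Rspo3, the other R-spondin found (protein-coding, minus strand, chr10:29452416-29535867), was close to the counting limit. It had 4.77, 10.9 and 8.07 CPM at 18 h, 6.52, 5.30, 6.64 and 9.93 CPM at 4 d, and 2.06, 1.67, 4.26 and 6.78 CPM in untreated libraries, from 3 to 20 counts each. The groups overlapped through untreated replicate 4. The log2 difference was 0.96 ± 0.49 at 18 h (adjusted p = 0.214; 95% interval -0.08 to 2.01) and 0.80 ± 0.44 at 4 d (adjusted p = 0.352; -0.15 to 1.75). Neither passed, and the intervals are wide at these counts.

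Between 4 d and 18 h, 5.51% of genes passed (1.7% higher, 3.81% lower) and 0 of the 6 ligands did by edgeR or DESeq2, with 1, Wnt5a, at an unadjusted p below 0.05. Bmp2 was at 0.42 ± 0.45, Wnt4 at -0.88 ± 0.52, Rspo1 at -0.22 ± 0.44 and Rspo3 at -0.16 ± 0.47. Each 95% interval of these 4 includes 0.

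The other genes of the BMP pathway were read in the same fibroblasts, from lists of ligands, receptors, antagonists, Smad proteins and target genes. At 18 h, of 29 tested genes, 2 stood higher and 3 lower, with a median log2 difference of -0.26 against -0.03 over all genes. Of all genes 7.85% were higher and 4.69% lower, and no result about the list is read from these counts. At 4 d 3 were higher and 0 lower, where 2.48% and 0.824% of all genes were, with a median of -0.17 against -0.04. DESeq2 called 1 lower at 4 d. At 18 h the count of higher genes was 1 without 18 h replicate 3 or untreated replicate 2 or 3, and that of lower genes was 1 without 18 h replicate 1 or untreated replicate 2, 3 or 4. At 4 d the count of higher genes was 1 without 4 d replicate 3 or 4 or untreated replicate 3 or 4. The ligands Bmp6 and Bmp7 did not pass by either tool or at an unadjusted p below 0.05 at either time, and Bmp7 averaged 11.9 ± 7.16 CPM at 18 h, 13.9 ± 3.44 CPM at 4 d and 15.1 ± 2.30 CPM in untreated libraries (SD, n = 3, 4 and 4).

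Among BMP receptors at 18 h, 1 of 7 was higher and 2 lower, where 7.85% and 4.69% of all genes were. No result about the list is read from these counts. Eng, endoglin, a co-receptor for BMP and TGF-beta ligands, had 405, 341 and 291 CPM at 18 h, 88.8, 96.4, 179 and 153 CPM at 4 d, and 117, 119, 67.4 and 151 CPM in untreated libraries. All 18 h libraries were above all others. The log2 difference was 1.61 ± 0.30 at 18 h (adjusted p = 0.00388) and held in each of the 21 alternatives. Eng is also made by endothelial cells, whose marker Pecam1 was 121, 14.5 and 42.7 CPM in the same 18 h libraries, and their part in the Eng difference was not tested.

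The receptor Bmpr1a, a type I receptor that Bmp4 and Bmp2 bind, was lower at 18 h, with 26, 25.4 and 23.3 CPM against 42.3, 37.9, 39.0 and 52.0 CPM in untreated libraries. Its log2 difference was -0.79 ± 0.23 (adjusted p = 0.0374). The call was lost without 18 h replicate 1 or 3, 4 d replicate 1 or 2, or untreated replicate 2, 3 or 4, at adjusted p from 0.0534 to 0.0997 and log2 differences from -0.84 to -0.68. Rgmb, a BMP co-receptor, was at -1.12 ± 0.31 (adjusted p = 0.0303), and its call was lost without 18 h replicate 1 or 2 or untreated replicate 2, 3 or 4 (adjusted p from 0.0609 to 0.106). The count of lower receptors was 0 without 18 h replicate 1 or untreated replicate 2, 3 or 4 and 1 without 18 h replicate 2 or 3 or 4 d replicate 1 or 2.

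Among 11 tested BMP antagonists and modulators, 1 was higher and 1 lower at 18 h, where 7.85% and 4.69% of all genes were. At 4 d 2 were higher and 0 lower, where 2.48% and 0.824% of all genes were. These counts are small and are given as a description. Twsg1, twisted gastrulation, which binds BMPs together with chordin, had 191, 197 and 171 CPM at 18 h, 339, 371, 273 and 243 CPM at 4 d, and 528, 358, 417 and 388 CPM in untreated libraries. Every 18 h library was below every other library. Its 18 h difference was -1.18 ± 0.23 (adjusted p = 0.00461) and held in all 21 alternatives.

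Bmper, which binds BMPs outside the cell, was higher at both times, with 12.2, 17.0 and 25.2 CPM at 18 h, 24.3, 22.9, 38.9 and 18.6 CPM at 4 d, and 6.71, 7.80, 5.68 and 10.2 CPM in untreated libraries. No library after dexamethasone overlapped an untreated one. The difference was 1.80 ± 0.32 at 4 d (adjusted p = 0.0107), held in all 21 alternatives, and 1.26 ± 0.35 at 18 h (adjusted p = 0.032). The 18 h call was lost without 18 h replicate 3 (0.90, adjusted p = 0.153) and without untreated replicate 1, 2 or 3 (adjusted p from 0.05 to 0.094, differences from 1.12 to 1.27).

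Fst, follistatin, which binds activins and some BMPs, had 116, 120, 286 and 151 CPM at 4 d against 49.0, 74.7, 47.5 and 45.2 CPM in untreated libraries, a difference of 1.64 ± 0.40 (adjusted p = 0.04). It passed no longer without 4 d replicate 3 or 4 or any untreated library (adjusted p from 0.0618 to 0.134), and the count of higher antagonists was then 1. Smad1, which carries the BMP signal, had 37.7, 25.8, 47.8 and 32.3 CPM at 4 d against 10.3, 19.5, 12.1 and 12.0 CPM, a difference of 1.43 ± 0.32 (adjusted p = 0.0282). Its call was lost without 4 d replicate 1, 3 or 4 or untreated replicate 1, 3 or 4 (adjusted p from 0.0503 to 0.104).

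Of 7 tested BMP target and feedback genes, 0 passed at 18 h or at 4 d in edgeR's test against untreated libraries, where 12.5% and 3.31% of all genes did. At an unadjusted p below 0.05 there were 1 higher and 1 lower at 18 h and 1 lower at 4 d, and DESeq2 called the same numbers. Id1, a transcription regulator induced by BMP signals, had a mean of 145 ± 15.3 CPM at 18 h (SD, n = 3), 136 ± 56.7 CPM at 4 d (SD, n = 4) and 283 ± 92.4 CPM in untreated libraries (SD, n = 4). Neither group overlapped the untreated one, and the log2 difference of -0.97 ± 0.33 at 18 h had an adjusted p of 0.0709, that of -1.05 ± 0.30 at 4 d one of 0.0729. Id3, with -0.24 ± 0.28 and -0.40 ± 0.26, and the inhibitory Smad7, with 0.36 ± 0.40 and 0.76 ± 0.37, overlapped the untreated libraries at both times. Msx1, a homeobox gene, was at 1.31 ± 0.41 at 18 h (adjusted p = 0.0512) and -0.40 ± 0.40 at 4 d (adjusted p = 0.641).

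**Figure D4:**
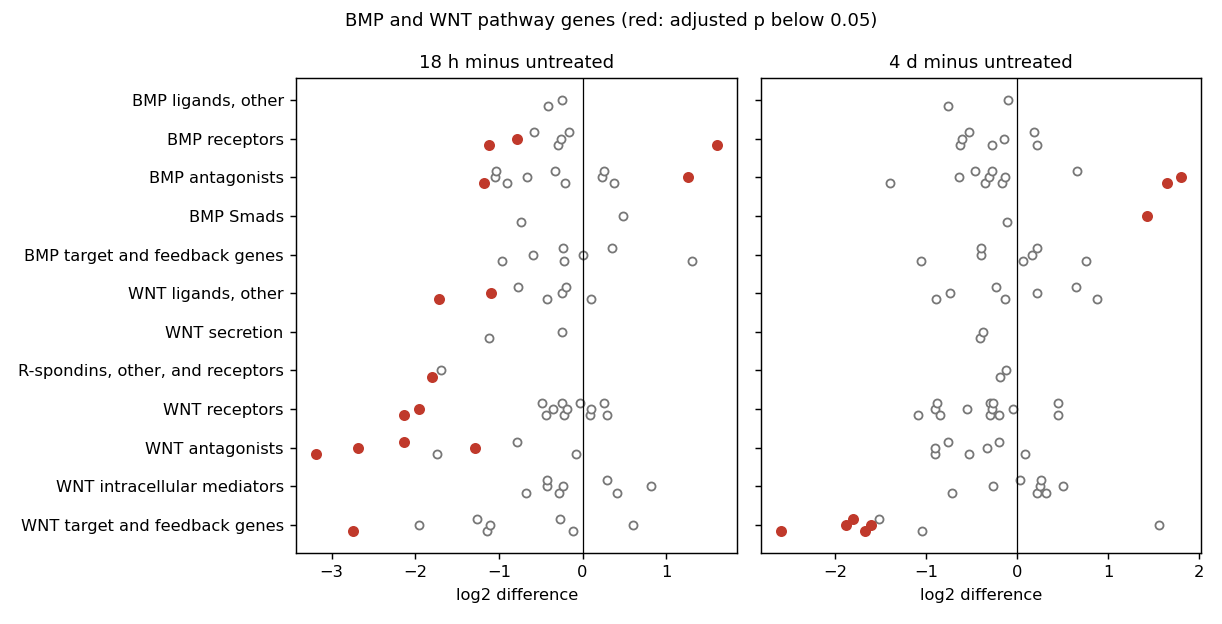
Log2 difference of every tested gene of each BMP and WNT pathway list, for 18 h minus untreated (left) and 4 d minus untreated (right), with genes that passed in red. At 18 h red points lie below 0 among WNT receptors and antagonists, and at 4 d 5 of 8 WNT target and feedback genes are red, between -2.60 and -1.60.

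The WNT pathway was read the same way. At 18 h 10 of 47 tested WNT pathway genes were lower and 0 higher (4.69% and 7.85% of all genes), with a median of -0.43 against -0.03 over all genes. At 4 d 5 were lower and 0 higher (0.824% and 2.48% of all genes), with a median of -0.29 against -0.04. With each library left out in turn, 3 to 11 were lower at 18 h, with 3 only without 18 h replicate 1 and at least 7 otherwise, and 0 to 6 were lower at 4 d. All 5 at 4 d were target and feedback genes, whose count without each library is given with them. DESeq2 called 12 lower and 1 higher at 18 h and 6 lower and 1 higher at 4 d. No test of the difference between the BMP and the WNT lists was made.

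Besides Wnt5a, 2 of 7 other tested WNT ligands were lower at 18 h and 0 higher, where 4.69% and 7.85% of all genes were. Wnt2b, which signals through beta-catenin, had 19.1, 23.0 and 21.4 CPM at 18 h, 39.5, 72.4, 19.6 and 32.3 CPM at 4 d, and 93.9, 57.4, 78.8 and 45.6 CPM in untreated libraries. The 18 h libraries lay within a narrow range below all untreated ones, a difference of -1.71 ± 0.40 (adjusted p = 0.0145). That call was lost without 18 h replicate 1 (-1.64, adjusted p = 0.0648). Wnt5b, the close relative of Wnt5a, had 10.1, 9.69 and 8.54 CPM against 29.4, 14.5, 19.2 and 17.3 CPM, a difference of -1.09 ± 0.31 (adjusted p = 0.0334). Its call was lost without any of the 18 h libraries and without untreated replicate 1 or 3 (adjusted p from 0.0522 to 0.0947). Without 18 h replicate 1 neither ligand passed, and without 18 h replicate 2 or untreated replicate 1 or 3 only Wnt2b did.

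Of 13 tested WNT receptors, 2 Frizzled genes were lower at 18 h and 0 at 4 d, where 3 were lower at an unadjusted p below 0.05 and 1 by DESeq2. The share of all genes that were lower was 4.69% at 18 h and 0.824% at 4 d. No result about the list is read from these counts. Fzd2, a receptor through which Wnt5a can signal, had 4.24, 4.84 and 6.17 CPM at 18 h, 15.6, 7.41, 16.6 and 7.45 CPM at 4 d, and 23.2, 25.6, 25.5 and 17.3 CPM in untreated libraries. The 3 groups stood in separate ranges, with 18 h lowest. The 18 h difference was -2.14 ± 0.38 (adjusted p = 0.00293) and held in all 21 alternatives. Fzd7 had 3.71, 2.42 and 8.54 CPM at 18 h against 11.9, 19.5, 28.7 and 22.6 CPM in untreated libraries, a difference of -1.96 ± 0.48 (adjusted p = 0.0176), lost without 18 h replicate 1 (adjusted p = 0.085) or untreated replicate 3 (0.0517), when 1 receptor was lower.

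The R-spondin receptor Lgr5 had 3.71, 1.21 and 9.02 CPM at 18 h and 15.2, 8.12, 29.9 and 13.7 CPM at 4 d, against 13.9, 24.0, 18.1 and 18.1 CPM in untreated libraries. Its 18 h difference of -1.80 ± 0.52 passed (adjusted p = 0.0366) but rests on 7, 1 and 19 counts. It was lost without 18 h replicate 1 or 2 or untreated replicate 2, 3 or 4 (adjusted p from 0.0669 to 0.133). At 4 d it was at -0.12 ± 0.41 (adjusted p = 0.914). The ligase Znrf3 was at -1.70 ± 0.61 at 18 h (adjusted p = 0.0809), from 0 to 3 counts per library.

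Of 7 tested WNT antagonists, 4 were lower at 18 h and 0 higher (4.69% and 7.85% of all genes), with a median of -1.74. At 4 d 0 passed (3.31% of all genes), the median was -0.53, 1 was lower at an unadjusted p below 0.05 and DESeq2 called 0. Apcdd1, a membrane inhibitor of WNT signals, had 7.95, 4.84 and 4.27 CPM at 18 h, 11.2, 12.7, 18.9 and 11.2 CPM at 4 d, and 21.7, 30.7, 21.3 and 29.4 CPM in untreated libraries. The 3 groups did not overlap, and the 18 h difference of -2.14 ± 0.34 (adjusted p = 0.00145) held in all 21 alternatives. Dkk3, of the Dickkopf family, had 24.4, 46.0 and 38.9 CPM at 18 h against 115, 71.9, 71.3 and 94.1 CPM, a difference of -1.29 ± 0.32 (adjusted p = 0.0178), lost without 18 h replicate 1 (-1.06, adjusted p = 0.0852).

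Dkk2, a secreted Dickkopf inhibitor, had 4.24, 3.63 and 3.32 CPM at 18 h, 7.97, 3.88, 47.2 and 12.4 CPM at 4 d, and 22.2, 47.9, 23.8 and 44.1 CPM in untreated libraries. Its 18 h difference was -3.18 ± 0.78 (adjusted p = 0.0171), lost without 18 h replicate 1 (adjusted p = 0.0617) or 3 (0.0574). Sfrp4, a secreted Frizzled-related protein that binds WNTs, had 24.4, 6.05 and 35.1 CPM at 18 h, 36.6, 24.4, 316 and 98.1 CPM at 4 d, and 130, 209, 89.4 and 170 CPM in untreated libraries. Its 18 h difference was -2.69 ± 0.78 (adjusted p = 0.0367), lost without any 18 h library, 4 d replicate 4 or untreated replicate 2 or 4 (adjusted p from 0.051 to 0.104). At 4 d the libraries low in mesothelial markers, replicates 3 and 4 (537 and 1397 CPM), were the highest of their group for Dkk2 and for Sfrp4. They also had the highest fibroblast marker sums, 34079 and 29546 CPM. Their sums of 5 capsular or adventitial fibroblast markers were 7271 and 7594 CPM, against 2822 to 4846 CPM in untreated libraries. The part of these sums in the 4 d levels was not tested. The number of lower antagonists at 18 h was 1 without 18 h replicate 1 and 2 without 18 h replicate 3, and 3 to 5 without any other library. The fibroblast marker sum was below the untreated range at 18 h, with a list median of -0.84, and its part in these differences was not tested. Of its 10 genes Col1a2 passed as lower and Pdgfrb as higher, and all but Pdgfrb were below 0.

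WNT target and feedback genes, which cells switch on in answer to beta-catenin, were read last. At 4 d 5 of the 8 tested were lower and 0 higher (5 and 1 by DESeq2), where 0.824% and 2.48% of all genes were, with a median of -1.63. At 18 h 1 was lower, Tnfrsf19, where 4.69% of all genes were, with a median of -1.12. Axin2, the negative feedback gene most used as a readout of the pathway, had 14.9, 9.89, 8.64 and 8.69 CPM at 4 d against 43.3, 28.4, 31.6 and 33.1 CPM in untreated libraries. All 4 d libraries were below all untreated ones. The mean of 10.5 ± 2.95 CPM (SD, n = 4) against 34.1 ± 6.45 CPM (SD, n = 4) gave a difference of -1.67 ± 0.38 (adjusted p = 0.0272). At 18 h Axin2 had 11.1, 33.9 and 7.59 CPM, with a single library in the untreated range, and -1.10 ± 0.42 did not pass (adjusted p = 0.0979).

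Nkd2, a feedback inhibitor of the pathway, had 4.71, 4.24, 5.65 and 2.48 CPM at 4 d against 17.0, 20.1, 11 and 19.6 CPM in untreated libraries, a difference of -1.88 ± 0.39 (adjusted p = 0.019). Its relative Nkd1 had 2.17, 3.18, 1.66 and 1.24 CPM against 10.8, 3.34, 8.52 and 8.28 CPM, a difference of -1.80 ± 0.44 (adjusted p = 0.04) from 1 to 9 counts per 4 d library. Ccnd1, cyclin D1, which many other signals also induce, had 22.1, 16.6, 15.3 and 27.3 CPM at 4 d against 58.8, 64.1, 31.9 and 85.1 CPM, a difference of -1.60 ± 0.33 (adjusted p = 0.0186). In none of these genes did a 4 d library reach an untreated one.

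Tnfrsf19, a receptor of the tumour necrosis factor family, had 0.725, 1.06, 5.98 and 1.24 CPM at 4 d against 19.6, 12.3, 7.10 and 21.8 CPM, a difference of -2.60 ± 0.63 (adjusted p = 0.0387), and of -3.92 without 4 d replicate 3 (adjusted p = 0.0203). At 18 h it had 4.24, 0 and 1.42 CPM, a difference of -2.75 ± 0.75 (adjusted p = 0.0291), lost without 18 h replicate 2 or 3 or untreated replicate 4 (adjusted p from 0.0585 to 0.0925). Myc had 516 ± 120 CPM at 4 d (SD, n = 4) against 175 ± 87.9 CPM (SD, n = 4), a positive difference of 1.56 ± 0.43 that did not pass (adjusted p = 0.0619). Tcf7 was at -1.05 ± 0.46 and Sp5 at -1.52 ± 0.74, and neither passed.

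The count of calls at 4 d changed with single libraries. It was 0 without 4 d replicate 2 or untreated replicate 4, 1 without untreated replicate 2, 2 without 4 d replicate 1, 3 or 4, 3 without untreated replicate 1 or 3, 4 without 18 h replicate 1 and 5 without 18 h replicate 2 or 3. The log2 differences themselves stayed between -1.91 and -1.53 for Axin2, between -2.05 and -1.77 for Nkd2 and between -1.82 and -1.38 for Ccnd1 over all 21 alternatives, and the calls of these 3 were lost at adjusted p from 0.0503 to 0.0928 when single libraries were left out. Nkd1 was lost without 18 h replicate 1, any 4 d library or untreated replicate 1 (adjusted p from 0.0534 to 0.131), and Tnfrsf19 without 4 d replicate 1, 2 or 4 or untreated replicate 1, 2 or 4 (0.0556 to 0.123). Nkd1 had an adjusted p in only 18 of the 21 alternatives and kept its call in 8 of them, and limma-voom was among those that lost it. Thymocyte markers, of cells that use the same pathway, summed to 2.82 to 12.4 CPM at 4 d and 6.19 to 31.8 CPM in untreated libraries, and the part of other cells in these differences was not tested.

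**Figure D5:**
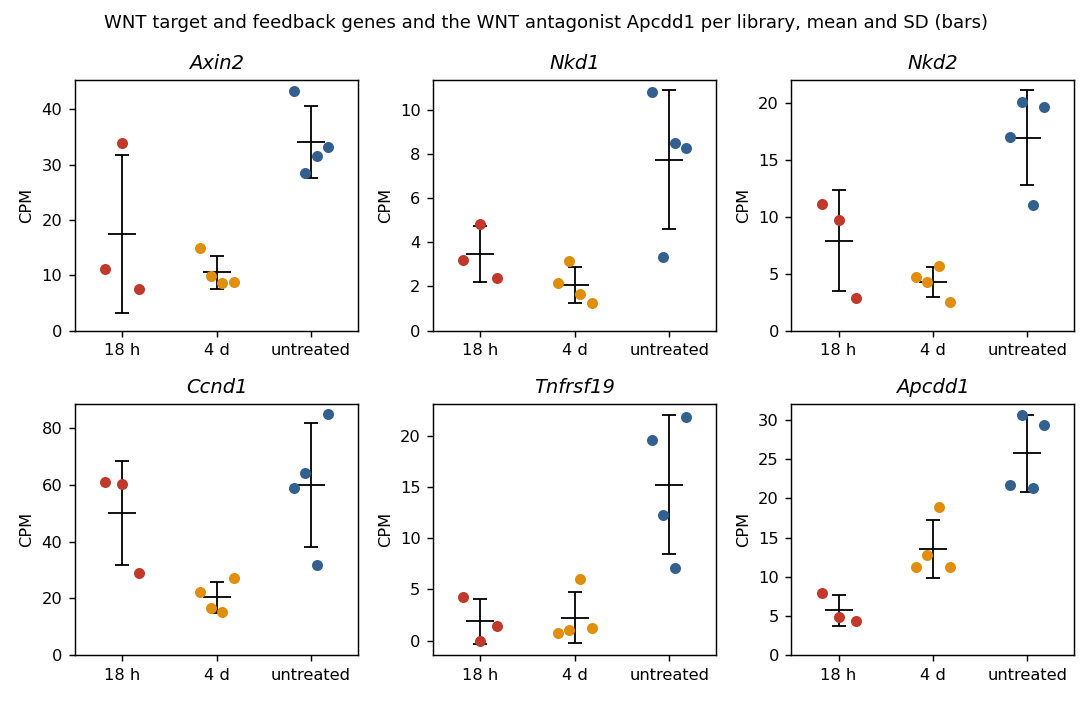
Level (CPM, linear axes) of 5 WNT target and feedback genes and of the WNT antagonist Apcdd1 in every library, with 1 point per library and bars for the mean and SD of the 18 h, 4 d and untreated groups. The 4 d points of Axin2 lie at or below 14.9 CPM and the untreated points at or above 28.4 CPM, while 1 of the 3 points at 18 h, at 33.9 CPM, is within the untreated range.

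Of the 76 tested BMP and WNT pathway genes, 3 passed between the times, Eng, Msx1 and Ccnd1, all lower at 4 d than at 18 h. Of all genes 3.81% were lower and 1.7% higher, and no result about the lists is read from this count. Eng differed by -1.43 ± 0.30 (adjusted p = 0.0126) and, of the libraries left out, was lost only without 18 h replicate 1 (-1.29, adjusted p = 0.0643). Msx1 had 12.7, 17.7, 30.2 and 29.8 CPM at 4 d against 117, 30.3 and 65.5 CPM at 18 h, a difference of -1.71 ± 0.42 (adjusted p = 0.0284) that was lost without 18 h replicate 1 (-1.16, adjusted p = 0.194) or 4 d replicate 1 or 2 (0.0816 and 0.0789). Ccnd1 differed by -1.33 ± 0.36 (adjusted p = 0.0448), with 60.9, 60.5 and 29.0 CPM at 18 h, and was lost without 18 h replicate 1 or 2, any 4 d library or untreated replicate 2 (adjusted p from 0.0569 to 0.194).

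The genes whose log2 CPM was most like that of each ligand were taken from 8972 genes, by Pearson's r over the 11 libraries, as a description. For Bmp4 they were Sirt3, Ccdc90b and Cyhr1 (r of 0.97, 0.96 and 0.95). For Wnt5a they were Dpy19l1, Slc25a35 and Oxct1 (0.94 each). For Bmp2 they were Gem, Tmem251 and Prdx6 (0.97, 0.97 and 0.95), and for Rspo1 Eml2, Rnf112 and Abca4 (0.97, 0.96 and 0.94). For Wnt4 they were Mpi, Pex26 and Tspan9 (0.88, 0.88 and 0.87), and for Rspo3 Wdr4, Rpl14-ps1 and Rpl28 (0.89, 0.88 and 0.88). With 11 libraries in 3 groups and 8972 candidates, such values arise for many genes, and no ligand had another of the 6 among its first 3.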

How the data were processed

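Sorted thymic fibroblasts of 3 groups of mice were profiled by MARS-seq in 11 libraries. The submitters' processing notes name STAR 2.5.2b, HTSeq, DESeq2, bcl2fastq and cutadapt, and mm10 as the build. How molecular identifiers and strand were handled, and with which annotation, is not given in the sources used here. Every test started from the whole-number counts that the authors deposited, which the file headers give by gene symbol and library. Their deposited normalized signal, equal to the counts times a constant per library, was not used. Their deposited log2 fold changes and adjusted p-values are quoted where named. All columns of per-sample values matched a sample. Each of 15 replicate pairs differed beyond sampling noise (chi-square over degrees of freedom from 5.28).

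With edgeR 4.0.16 in R 4.3.3, filterByExpr at a minimum count of 10 retained 10067 of 12430 genes. Libraries were scaled by TMM and all 11 entered 1 quasi-likelihood fit with robust dispersion, with group as the only term. P-values were adjusted by Benjamini-Hochberg over all genes tested, with a threshold of 0.05. CPM is the count divided by the TMM-scaled library total, and the SE is the size of the log2 difference over the square root of F. The fit was tested on simulated data. The alternatives were DESeq2 1.42.0, other scalings and filters, limma-voom (limma 3.58.1), subsets of libraries, a replicate block by title number and, chosen after seeing the data, a replicate block by column number. Marker sums were compared with exact permutation tests in scipy 1.17.1. Intervals and limits for counts of 0 cover counting error only, and totals of 916281 to 3357113 counts set their width.

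The ligands and gene lists were chosen with earlier results of these data known. Named genes were the 7 ligands, pathway genes that passed in at least 1 comparison with up to 4 further genes per list by adjusted p, the 3 genes most like each ligand (mean count of at least 10), and defining markers. Coordinates are from GENCODE on GRCm38, and promoters are from RefSeq, where 4 of the 7 ligands had an entry.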

Additional observations from a re-analysis of the deposited data

Results flagged for a closer look

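In the 4 d libraries Tnfrsf19 had a single high library, replicate 3, at 5.98 CPM against 0.725 to 1.24 CPM in the others, and the gap was 0.90 of the range of the group, above Dixon's 95% value for 4 samples. In the untreated libraries Fst had a single high library, replicate 2, at 74.7 CPM against 45.2 to 49.0 CPM, a gap of 0.87 of the range. These were 2 of 72 groups of 4 libraries examined, fewer than the 1 in 20 that chance gives.

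The dexamethasone effects at 4 d and 18 h, which share the untreated libraries, differed for 3 pathway genes when the libraries of the 2 times were compared directly in edgeR's quasi-likelihood test. The difference of 4 d from 18 h was -1.43 for Eng (adjusted p = 0.0126), -1.71 for Msx1 (adjusted p = 0.0284) and -1.33 for Ccnd1 (adjusted p = 0.0448), on the log2 scale. Eng was above the untreated level in 3 of 3 libraries at 18 h and within its range or above it at 4 d, Msx1 was high in 18 h replicates 1 and 3, and Ccnd1 was below every untreated library in 4 of 4 libraries at 4 d. For Eng without 18 h replicate 1 the difference was -1.29 (adjusted p = 0.0643), and for Msx1 it was -1.16 (adjusted p = 0.194). Ccnd1 lost its call without 18 h replicate 1 (-1.12) or 2 (-1.19), any 4 d library (-1.45 to -1.21) or untreated replicate 2 (-1.33).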

How the results depend on the processing

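The calls of Bmp4 at both times held in all 21 alternatives, and that of Wnt5a at 18 h in all but the replicate block by column number (-1.70, adjusted p = 0.0714), which left 1 lower ligand. Of 375 ligand values, 366 kept their direction and side of the threshold, and 1, Wnt5a at 4 d without untreated replicate 1, newly passed at -1.25, for 2 lower ligands. Signs turned, with no call, for Wnt4 at 18 h (-0.12 without the 2 shallowest libraries or without 18 h replicate 2) and between 4 d and 18 h for Bmp2 (-0.072 without those 2 libraries), Rspo1 (0.32 without those 2, 0.14 without 18 h replicate 2, 0.035 without 4 d replicate 3) and Rspo3 (0.065 without 18 h replicate 2). With single libraries left out these values ran from -0.12 to 0.69 for Wnt4, from -0.48 to 0.14 for Rspo1 and from -0.44 to 0.065 for Rspo3. The cause was not tested.

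Counts of all genes called moved more. DESeq2 gave 471 higher and 180 lower at 4 d and 307 higher for 4 d against 18 h. Library totals in place of TMM shifted the median of all genes by -0.23 at 18 h and -0.18 at 4 d and gave 897 lower at 18 h and 162 lower at 4 d. Fitting only the 2 groups compared gave 394 higher and 144 lower at 4 d, and 102 higher and 253 lower for 4 d against 18 h, where leaving out the 2 shallowest libraries gave 111 higher. Leaving out each library in turn gave 463 to 963 higher and 171 to 567 lower at 18 h, 86 to 440 higher and 27 to 177 lower at 4 d, and 45 to 346 higher and 196 to 461 lower for 4 d against 18 h, each against 790, 472, 250, 83, 171 and 384 with all libraries; the fewest lower at 18 h and the fewest of both kinds between the times were without 18 h replicate 1.

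The title numbers of untreated samples, 1 to 4, differ from their column numbers, which are 1, 3, 4 and 5. Deviations of same-numbered samples correlated at -0.34 to 0.19 over 10 pairs by title and at -0.14 to 0.36 over 8 pairs by column, and neither numbering had every pair above 0.1, so the numbers were taken to name samples only. With the replicate block by title, 443 were higher and 205 lower at 18 h, 46 and 14 at 4 d, and 74 and 231 for 4 d against 18 h. With the replicate block by column, added after seeing the data, these were 306 and 112, 73 and 18, and 123 and 241. Of the 5 WNT target and feedback genes lower at 4 d, the block left 1 by title and 0 by column. Depth limits Wnt5a and Rspo3 most, with as few as 2 and 3 counts in a library.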
